A study of Homo sapiens with 8 samples.

Results

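The AP-1 transcription factors examined here were 8 genes, the FOS family members FOS, FOSB, FOSL1 and FOSL2, the JUN family members JUN, JUNB and JUND, and ATF3, taken by symbol from a count table of 61228 genes. All 8 were present, and all 8 passed the filter on low counts that left 15568 genes for testing. Polyadenylated RNA was sequenced from MDA-MB-231, an established line of mesenchymal character from a triple-negative breast tumour, in 8 libraries, 2 in each of 4 groups. Knockout gels were cells that received Cas9 and guide RNAs against ETV1, ETV4 and ETV5, grown in collagen I gels. Control gels received Cas9 with a control guide and were also grown in collagen I gels. Knockout monolayers received Cas9 and the ETV guides and grew on plastic. Control monolayers received a control guide and grew on plastic, and their label, unlike that of the control gels, does not name Cas9. All groups were nucleofected and fed the same serum-containing medium. The protocol names a pair of collagen concentrations and does not say which gel had which. The labels do not say whether the knockout cells were 1 clone or a mixed population, nor how long cells were grown. Nor do they say that libraries of the same group stem from different dishes, so p values measure only the spread between these libraries, which may be technical.

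AP-1 is a dimer of basic leucine zipper proteins. A JUN protein can pair with itself or with a FOS protein, whereas FOS proteins need a JUN partner to bind DNA. FOS, FOSB, JUNB and ATF3 are among the immediate-early genes, which cells switch on transiently after growth factors, mechanical disturbance or stress. FOSL1 (Fra-1) and FOSL2 (Fra-2) respond more slowly, and FOSL1 is known as the abundant FOS protein of aggressive breast cancer lines. ERK signalling raises FOS family expression, the JNK kinases phosphorylate JUN, and ATF3 is also a target of the stress factor ATF4.

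The promoters are shown for the 3 genes that rose most in gels, FOS, FOSB and ATF3, and for JUN, which fell in knockout cells in both cultures (as FOSL2 did by a smaller amount). RefSeq promoter sequences were found for 7 of the 8 members, and FOSL1 was the one without an entry. Each sequence below holds the 250 bases before the RefSeq start of transcription (GRCh38.p14), 5′ to 3′ on the gene's own strand. Capitals mark matches, on either strand, to TGACG, the core of the cAMP response element, or to TGACATCA, the AP-1-like site known from the JUN promoter. The FOS window is chr14:75278578-75278827 (plus strand), that of FOSB chr19:45467746-45467995 (plus), that of ATF3 chr1:212565157-212565406 (plus, the upstream one of its 2 entries) and that of JUN chr1:58784048-58784297 (minus).
FOS: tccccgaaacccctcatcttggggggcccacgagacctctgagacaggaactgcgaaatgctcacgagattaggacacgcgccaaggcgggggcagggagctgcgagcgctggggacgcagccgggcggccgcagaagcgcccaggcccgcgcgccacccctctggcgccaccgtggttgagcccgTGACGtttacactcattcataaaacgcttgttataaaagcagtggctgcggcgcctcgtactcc
FOSB: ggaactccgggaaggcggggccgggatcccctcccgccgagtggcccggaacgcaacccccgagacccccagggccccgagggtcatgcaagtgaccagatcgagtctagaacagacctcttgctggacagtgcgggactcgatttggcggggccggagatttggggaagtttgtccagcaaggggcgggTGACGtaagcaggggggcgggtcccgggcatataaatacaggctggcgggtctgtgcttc
ATF3: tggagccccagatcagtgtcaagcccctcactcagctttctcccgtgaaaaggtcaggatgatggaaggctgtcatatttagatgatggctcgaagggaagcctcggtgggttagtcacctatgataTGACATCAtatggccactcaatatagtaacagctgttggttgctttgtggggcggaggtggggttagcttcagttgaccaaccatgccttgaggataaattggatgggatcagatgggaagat
JUN: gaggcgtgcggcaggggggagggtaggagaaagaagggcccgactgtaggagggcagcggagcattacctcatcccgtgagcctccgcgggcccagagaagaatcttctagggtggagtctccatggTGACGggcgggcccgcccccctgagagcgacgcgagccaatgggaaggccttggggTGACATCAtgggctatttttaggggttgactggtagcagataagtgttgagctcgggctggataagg
FOS and FOSB each held a single TGACG, at positions -64 to -60 and -60 to -56 counted from the start, and ATF3 and JUN each held a single TGACATCA, at -123 to -116 and -67 to -60. JUN also held a TGACG at -123 to -119. The downstream ATF3 entry, which is not shown, held no match to any motif named here. TGACG was present in 21.2% of 35116 promoter windows of the same length and TGACATCA in 2.37%. Members that rose less in gels held TGACG too, namely FOSL2, JUNB and JUND, whose windows are not shown. None of the 4 windows held the consensus AP-1 site TGANTCA (6.57% of all windows), the full element TGACGTCA (1.65%, which contains TGACG), the ETS core CCGGAAG (8.52%) or a CArG box (1.16%). The JUND window did hold TGACGTCA, at -200 to -193. Bases further than 250 upstream of the start, and any start without a RefSeq entry here, were not searched, so motifs there would be missed. For ATF3, which has 11 annotated transcripts in GENCODE, only the windows of its 2 entries were searched. The letters describe these windows and say nothing about binding.

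Library totals ran from 15824504 to 23896899 counts, and mitochondrially encoded genes took 2.29 to 3.94% of them. Levels are given as CPM, which relates a gene's count to the TMM-scaled total of its library. In the knockout cells ETV1 and ETV4 transcripts were lower in gels (log2 -0.66 and -0.57) and in monolayers (log2 -0.50 and -0.45), and ETV5 transcripts had log2 differences of 0.02 and 0.03, neither of which passed (adjusted p = 0.808 and 0.718). The line's mesenchymal marker VIM stood at 5284 to 7407 CPM and AXL at 876 to 1107 CPM, while ESR1 and PGR did not exceed 0.08 CPM. Among other markers listed as low, KRT8 stood at 386 to 554 CPM, EPCAM at 12.9 to 23.0 CPM and GATA3 at 7.53 to 12.7 CPM. Leukocyte markers summed to 2.98 to 8.34 CPM in any library, with MS4A1 at 0 in all 8 and LYZ at 1.32 to 6.20 CPM. Endothelial markers summed to 25.3 to 40.3 CPM, with CLDN5 at 0 in all 8 and TIE1 at 5.26 to 13.4 CPM. Fibroblast markers summed to 12.2 to 25.3 CPM, with COL1A1 at 9.04 to 18.4 CPM.

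Cells recovered from collagen gels held far more FOS, FOSB and ATF3 transcripts than cells lysed on plastic, with or without the ETV knockout, and the other 5 AP-1 genes were higher by smaller amounts. All 8 members were called higher in knockout gels than in knockout monolayers, where 20.1% of all tested genes were called higher and 38.0% changed in either direction. All 8 were likewise higher in control gels than in control monolayers, against 16.0% of all genes called higher and 26.7% changed. The members' median log2 fold change was 0.41 in knockout cells, where the median of all tested genes was -0.0063, and 0.64 in control cells, where it was 0.012. All gels were digested with collagenase I at 300 U/ml and 37 °C for 10 and then 5 minutes, pipetted, pelleted and frozen, and all monolayers were lysed directly, so gel culture and this handling cannot be told apart. Control monolayers may also have lacked Cas9, which cannot be told apart from culture in the control comparison. In bulk RNA, fewer cells that express a gene and less of its RNA per cell cannot be told apart.

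**Figure D1:**
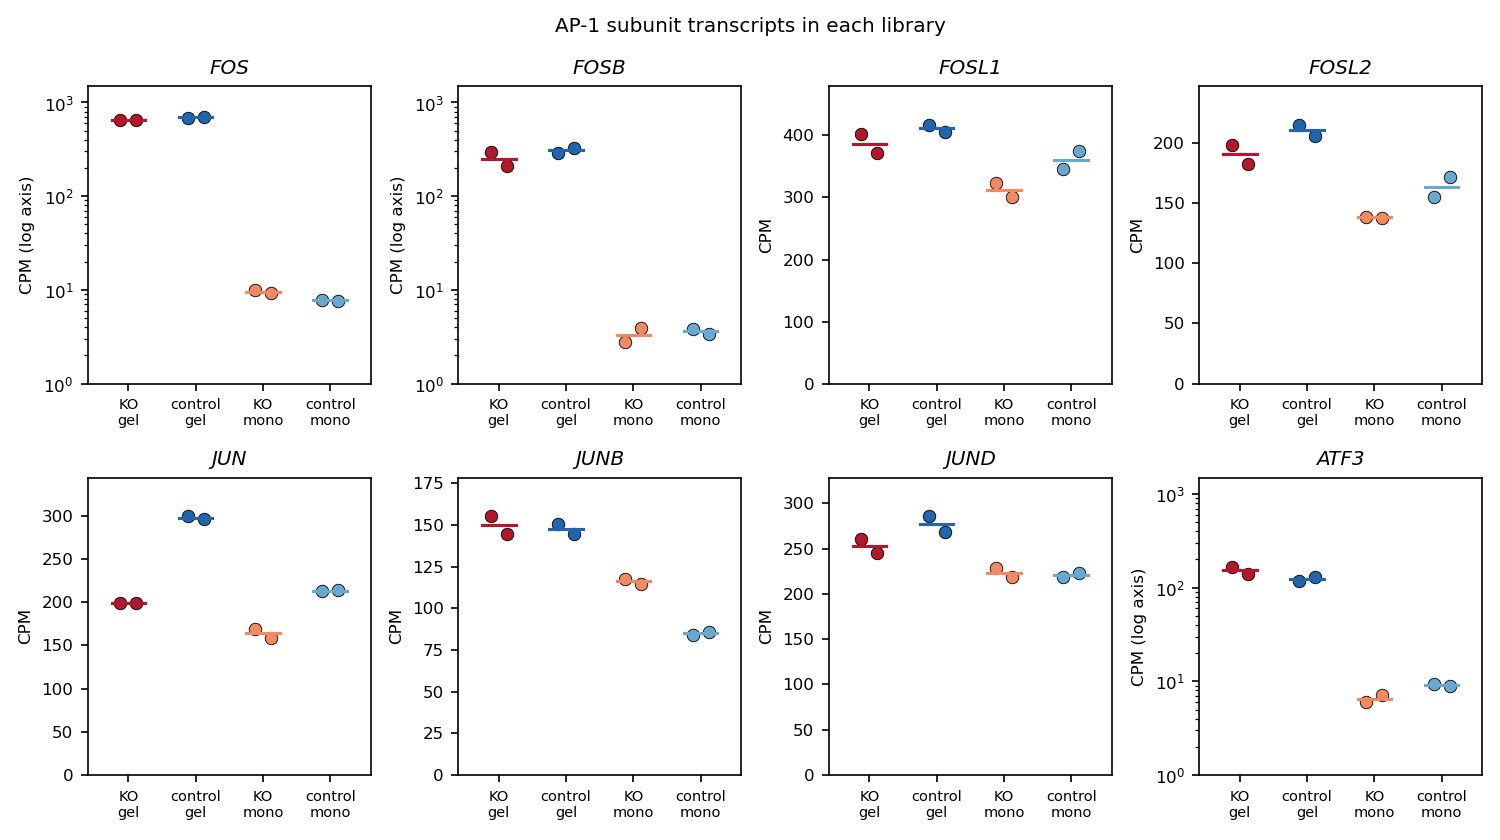
Each point is the CPM of 1 library and each line the mean of the 2 libraries of a group, with knockout gels, control gels, knockout monolayers and control monolayers from left to right; the axes of FOS, FOSB and ATF3 are logarithmic and the others start at 0. FOS lies at 649 to 707 CPM in the 4 gel libraries and at 7.69 to 9.97 CPM in the 4 monolayer libraries, and JUN is lower in knockout than in control libraries in both cultures.

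FOS, the founding immediate-early member, reached 649 and 655 CPM in the knockout gels and 687 and 707 CPM in the control gels. It stood at 9.97 and 9.22 CPM in the knockout monolayers and 7.85 and 7.69 CPM in the control monolayers. No gel library came near any monolayer library. The log2 fold change of gels over monolayers was 6.09 ± 0.065 in knockout cells (SE, 68.1-fold, adjusted p = 1.05e-38) and 6.48 ± 0.066 in control cells (89.4-fold, adjusted p = 1.81e-39). Among the 15568 tested genes FOS had the 2nd highest rise in each kind of cell.

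FOSB, whose product is the closest relative of FOS, held 295 and 208 CPM in the knockout gels and 287 and 329 CPM in the control gels. In monolayers it was low, with 46 and 71 counts in the knockout libraries (2.78 and 3.87 CPM) and 96 and 55 counts in the control libraries (3.86 and 3.41 CPM). Its rise was thus of the same order as that of FOS, at log2 6.23 ± 0.33 in knockout cells (adjusted p = 0.000232) and 6.38 ± 0.32 in control cells (adjusted p = 0.000313). These SEs are wide because its replicate spread was outlying in the robust fit, and the test had 4.30 degrees of freedom for FOSB against 34.3 for FOS. The gene interval of FOSB lies within that of ERCC1 on the other strand. ERCC1 held 1590 to 2550 counts, with log2 differences between gels and monolayers of 0.12 in knockout cells and 0.15 in control cells.

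ATF3, a CREB-related stress factor that dimerizes with JUN proteins, had 168 and 140.4 CPM in the knockout gels and 119 and 131 CPM in the control gels. The knockout monolayers held 5.98 and 7.09 CPM and the control monolayers 9.30 and 8.93 CPM. Each gel library again exceeded each monolayer library, by log2 4.55 ± 0.11 in knockout cells (23.5-fold, adjusted p = 2.87e-18) and 3.77 ± 0.098 in control cells (13.6-fold, adjusted p = 3.77e-17).

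FOSL1 and FOSL2 were already abundant on plastic and were modestly higher in gels. FOSL1 had 402 and 372 CPM in the knockout gels, 417 and 406 CPM in the control gels, 323 and 301 CPM in the knockout monolayers and 346 and 375 CPM in the control monolayers. Its log2 difference between gels and monolayers was 0.31 ± 0.050 in knockout cells (adjusted p = 8.38e-06) and 0.19 ± 0.049 in control cells (adjusted p = 0.00377). The call in control cells was lost without control gel library 1 (adjusted p = 0.0721), without control monolayer library 1 (0.159) and with scaling by library size alone (0.0829). FOSL2 had 198 and 183 CPM in the knockout gels, 215 and 206 CPM in the control gels, 139 and 138 CPM in the knockout monolayers and 155 and 172 CPM in the control monolayers. It was higher in gels by log2 0.46 ± 0.054 in knockout cells (adjusted p = 2.41e-08) and 0.37 ± 0.053 in control cells (adjusted p = 2.04e-06).

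Of the JUN family, which supplies the partner of every FOS protein, JUNB had the larger difference in each kind of cell. JUNB, often the weaker activator of the family, had 155 and 145 CPM in the knockout gels, 151 and 145 CPM in the control gels, 118 and 115 CPM in the knockout monolayers and 84.2 and 85.9 CPM in the control monolayers. It was higher in gels by log2 0.37 ± 0.053 in knockout cells (adjusted p = 1.15e-06) and 0.80 ± 0.053 in control cells (adjusted p = 9.26e-14). JUN, the canonical partner of FOS, had 199 and 199 CPM in the knockout gels, 299.5 and 296 CPM in the control gels, 169 and 159 CPM in the knockout monolayers and 213 and 214 CPM in the control monolayers. Its log2 difference between gels and monolayers was 0.28 ± 0.048 in knockout cells (adjusted p = 1.75e-05) and 0.48 ± 0.046 in control cells (adjusted p = 7.57e-10). JUND, the member expressed in most resting cells, had 260.2 and 246 CPM in the knockout gels, 286 and 269 CPM in the control gels, 228 and 219 CPM in the knockout monolayers and 218 and 223 CPM in the control monolayers. It was higher in gels by log2 0.18 ± 0.049 in knockout cells (adjusted p = 0.00395) and 0.33 ± 0.048 in control cells (adjusted p = 3.07e-06), but the call in knockout cells was lost without knockout monolayer library 2 (adjusted p = 0.0812) and with scaling by library size alone (0.0627). The interval of JUNB lies within that of HOOK2 on the other strand. HOOK2 held 417 to 1071 counts and was lower in gels, by log2 -0.74 in knockout cells and -0.26 in control cells.

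The background counts of these comparisons shifted with the scaling, whereas no member changed sign between gels and monolayers in any of 17 alternatives. In knockout cells 3122 genes were called higher and 2793 lower with TMM, against 2293 and 3360 with upper-quartile factors and 2089 and 3539 with library size alone. In control cells the numbers were 2486 and 1672 with TMM, 1699 and 2213 with upper-quartile factors and 1239 and 2804 with library size alone.

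Most other immediate-early genes, a list without AP-1 members, were higher in the gels as well. Of 17 tested of 18 listed, 13 rose and 4 did not pass in knockout cells (median log2 0.62), and 13 rose and 4 did not pass in control cells (median 0.49), where 20.1% and 16.0% of all tested genes were called higher. NR4A1, an orphan nuclear receptor, averaged 92.2 ± 23.0 CPM in the knockout gels, 66.2 ± 4.39 CPM in the control gels, 3.35 ± 0.728 CPM in the knockout monolayers and 3.76 ± 0.144 CPM in the control monolayers (SD, n = 2). EGR1, a zinc finger factor induced with FOS, differed by log2 1.41 in knockout cells and 1.74 in control cells, and ZFP36, an RNA-binding protein that shortens the life of AU-rich transcripts, by 1.90 and 1.96. The summed level of the list was 4181 to 4263 CPM in the knockout gels, 3811 to 3943 CPM in the control gels, 2266 to 2359 CPM in the knockout monolayers and 2597 to 2637 CPM in the control monolayers. The heat shock genes often raised by tissue dissociation split: 3 of 10 rose and 2 fell in knockout gels relative to knockout monolayers, and 2 rose and 2 fell in control gels relative to control monolayers, beside 38.0% and 26.7% of all tested genes called in either direction. HSPA1A, the inducible HSP70, fell by 0.70 in the knockout comparison and by 0.39 in the control comparison on the log2 scale. Their summed level was 6596 to 6919 CPM in knockout gels, 5606 to 5694 CPM in control gels, 5904 to 5929 CPM in knockout monolayers and 5367 to 5405 CPM in control monolayers. The part of a dissociation response in the AP-1 difference was not tested.

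**Figure D2:**
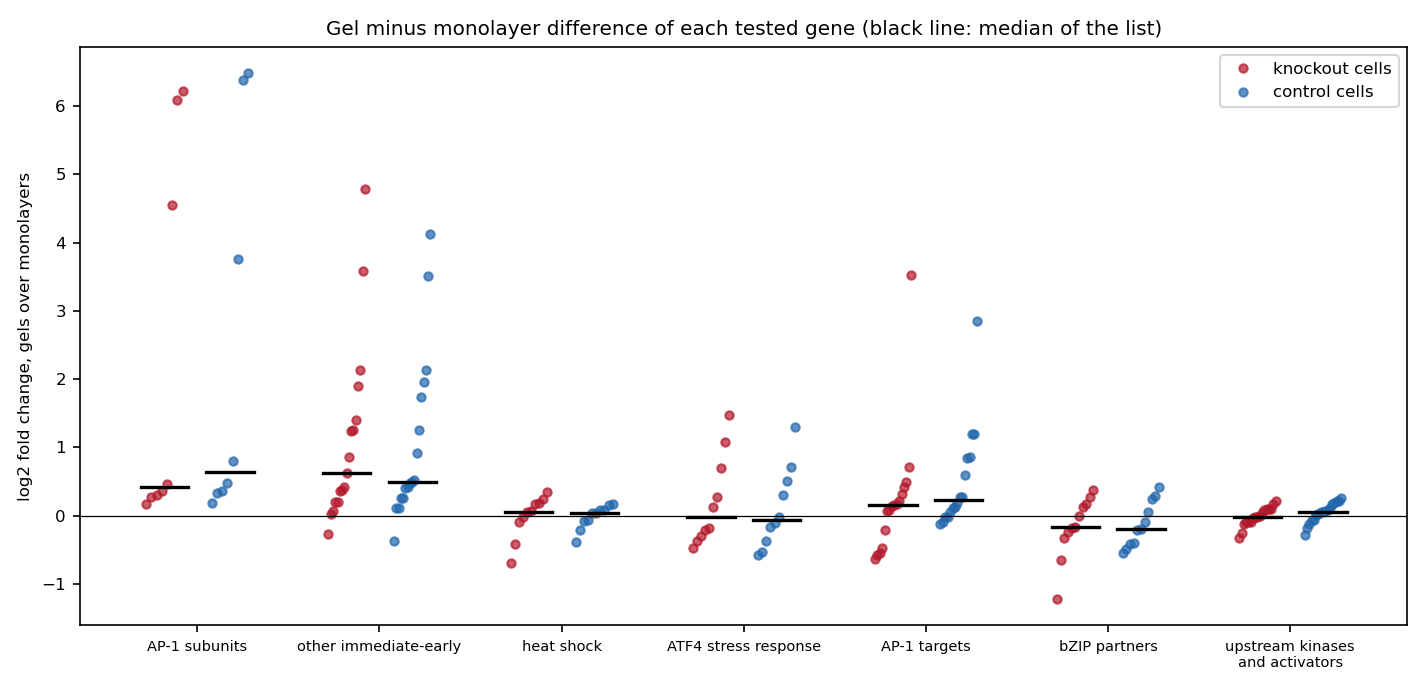
Each point is the log2 fold change of 1 tested gene, gels over monolayers, in knockout cells (red, left of each pair) and control cells (blue, right), grouped by gene list, with a black line at the list's median. FOS and FOSB lie above 6 and ATF3 at 4.55 and 3.77, while the medians of the heat shock, bZIP partner and kinase lists lie between -0.20 and 0.06.

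Among genes that AP-1 is known to activate, calls between gels and monolayers were more often higher than lower, with DUSP1 far above the rest. For the lists that follow, 20.1% of all tested genes were called higher and 17.9% lower in knockout cells, and 16.0% higher and 10.7% lower in control cells. Of 22 listed targets 16 were tested, and the others did not pass the filter on low counts. Of the 16, 9 rose, 5 fell and 2 did not pass in knockout gels relative to knockout monolayers (median log2 0.15). In control gels 9 rose, none fell and 7 did not pass (median 0.23). DUSP1, a phosphatase that switches off MAP kinases, averaged 529 ± 7.19 CPM in knockout gels and 419 ± 13.6 CPM in control gels, against 46.0 ± 0.162 CPM in knockout monolayers and 58.3 ± 4.36 CPM in control monolayers (SD, n = 2). HBEGF, an EGF receptor ligand, was higher in gels by log2 0.71 in knockout cells and 0.84 in control cells. PLAU, the urokinase gene, fell by 0.63 and TIMP1, a metalloproteinase inhibitor, fell by 0.57 in knockout gels relative to knockout monolayers. Of the ATF4 stress genes around ATF3, 4 of 10 rose and 3 fell in knockout cells and 4 rose and 2 fell in control cells, with PPP1R15A, which restarts protein synthesis after stress, at log2 1.48 and 1.29 and ATF4 itself at 0.28 and 0.31. DDIT4, an inhibitor of mTORC1, fell by 0.47 and by 0.54. Of 17 tested upstream kinases and activators of 18 listed, 2 rose and 2 fell in knockout cells, and 3 rose and 2 fell in control cells, a share not above that of all genes in knockout cells and close to it in control cells. Among 11 tested of 12 listed bZIP partners, MAFF, a small MAF protein, rose by 0.28 and by 0.30, and ATF2, a dimer partner of JUN, fell by 0.23 and by 0.21.

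The relative levels of the subunits were compared after division by the length of the principal GENCODE transcript, as CPM per kb. In the knockout gels FOS came first at 302 ± 2.03, followed by FOSL1 at 232 ± 12.9 and JUND at 136 ± 5.57 CPM per kb (SD, n = 2). JUNB (82.4 ± 4.12), ATF3 (75.9 ± 9.63), FOSB (66.6 ± 16.4) and JUN (56.2 ± 0.004) followed, and the neighbours from JUNB to JUN did not differ beyond their spread. FOSL2 was lowest at 28.4 ± 1.65 CPM per kb. In the control gels the order was FOS (323 ± 6.45), FOSL1 (247 ± 4.68), JUND (149 ± 6.52), JUN (84.2 ± 0.617), FOSB (81.6 ± 7.75), JUNB (81.2 ± 2.28), ATF3 (61.4 ± 4.30) and FOSL2 (31.4 ± 0.966). FOSB there overlapped both JUN and JUNB. In the knockout monolayers FOSL1 led at 187 ± 9.26, before JUND (120.0 ± 3.47), JUNB (63.9 ± 1.10), JUN (46.3 ± 2.00), FOSL2 (20.6 ± 0.062), FOS (4.44 ± 0.246), ATF3 (3.21 ± 0.386) and FOSB (0.881 ± 0.205). In the control monolayers it led at 216 ± 12.2, before JUND (119 ± 1.89), JUN (60.2 ± 0.235), JUNB (46.7 ± 0.689), FOSL2 (24.3 ± 1.79), ATF3 (4.48 ± 0.126), FOS (3.601 ± 0.051) and FOSB (0.964 ± 0.085). JUN stood above JUNB in control monolayers and below it in knockout monolayers. With the length of all annotated exons in place of the principal transcript, FOSL1 came before FOS in both gel groups.

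Shares within a family do not depend on library scaling, but they do depend on the transcript length used. FOS made up 46.3 to 49.9% of FOS family transcripts per kb in knockout gels and 47.1 to 47.6% in control gels, against 2.07 to 2.10% in knockout monolayers and at most 1.55% in control monolayers. FOSL1 took 36.6 to 37.1% in knockout gels, 35.3 to 37.0% in control gels, 87.5 to 88.2% in knockout monolayers and 88.2% in both control monolayer libraries. The FOS family together summed to 649.5 and 609 CPM per kb in knockout gels and 676 and 689 in control gels, against 219.6 and 206 in knockout monolayers and 235 and 255 in control monolayers. Within the JUN family JUN made up at most 21.0% in knockout gels against 26.4 to 27.2% in control gels, and 19.9 to 20.3% in knockout monolayers against 26.6 to 26.9% in control monolayers. JUNB made up 29.7 to 30.3% in knockout gels against 25.8 to 25.9% in control gels, and 27.5 to 28.0% in knockout monolayers against 20.7 to 20.8% in control monolayers. With the length of all annotated exons, FOS took 40.5 to 43.8% in knockout gels and 41.2 to 41.8% in control gels. FOSL1 then took 42.6 to 43.1% in knockout gels and 41.3 to 42.9% in control gels. The shares are a description and were not tested.

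**Figure D3:**
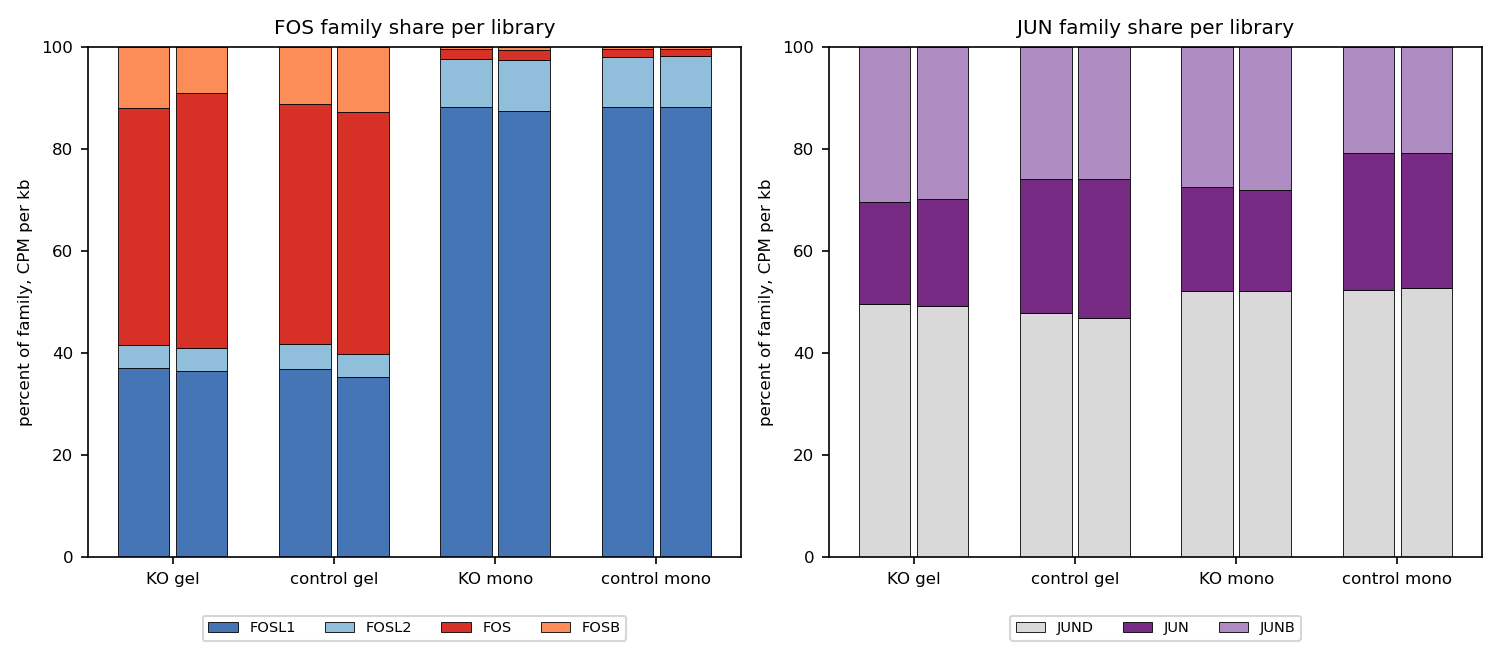
Stacked bars give each subunit's percent of its family's summed CPM per kb in each of the 8 libraries, FOS family on the left and JUN family on the right, with knockout gels, control gels, knockout monolayers and control monolayers in that order. FOSL1 fills 87.5 to 88.2% of the FOS family bars of monolayers and 35.3 to 37.1% of those of gels, and JUN takes 19.9 to 21.0% of the JUN family bars of knockout libraries and 26.4 to 27.2% of those of control libraries.

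Within gels the knockout was accompanied by less JUN and more ATF3, and FOSL2 and JUND passed narrowly as lower. Of the 8 members 3 fell, 1 rose and 4 did not pass in knockout gels relative to control gels, where 12.4% of all tested genes were called lower, 11.5% higher and 23.9% in either direction. The members' median log2 fold change was -0.11, beside -0.0011 for all genes. JUN fell by 33.2%, with both knockout libraries at 199 CPM and both control libraries above 290 (log2 -0.58 ± 0.047, adjusted p = 5.81e-12), and kept its call in all 17 alternatives. ATF3 was higher by log2 0.31 ± 0.071 (adjusted p = 0.00316), a call lost without control gel library 1 (adjusted p = 0.0714) and with only the 4 gel libraries (0.0898). FOSL2 (log2 -0.14 ± 0.052, adjusted p = 0.0416) and JUND (-0.13 ± 0.048, adjusted p = 0.0411) passed narrowly. FOSL2 lost its call without knockout gel library 2 (0.374), control gel library 1 (0.324), control gel library 2 (0.0879) or knockout monolayer library 1 (0.0732). JUND lost its call without knockout gel library 1 (0.0520) or 2 (0.316), control gel library 1 (0.425) or 2 (0.0589), knockout monolayer library 1 (0.0763) or control monolayer library 1 (0.0572). Neither passed in DESeq2 (0.132 for FOSL2 and 0.106 for JUND).

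FOS (log2 -0.10, 95% interval -0.18 to -0.01, adjusted p = 0.111), FOSL1 (-0.09, -0.19 to 0.01, 0.194) and JUNB (0.02, -0.09 to 0.12, 0.827) did not pass between knockout and control gels. FOS passed when only the 4 gel libraries were fitted (adjusted p = 0.0487). FOSB was less well bounded (log2 -0.29, interval -0.81 to 0.22, adjusted p = 0.371), its knockout libraries of 295 and 208 CPM lying on either side of the lower control library. It passed without knockout gel library 1 (log2 -0.55, adjusted p = 1.06e-07) and without robust estimation (adjusted p = 0.0315).

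In monolayers JUN again fell and JUNB rose with the knockout. Of the 8 members 4 fell, 2 rose and 2 did not pass in knockout monolayers relative to control monolayers, where 9.60% of all tested genes were called lower, 9.60% higher and 19.2% in either direction. The members' median log2 fold change was -0.17, beside 0.013 for all genes. JUN fell by 23.1% (log2 -0.38 ± 0.048, adjusted p = 1.91e-07) and JUNB was higher by 36.8% (log2 0.45 ± 0.055, adjusted p = 8.13e-08). Both calls held in all 17 alternatives. HOOK2, which overlaps JUNB on the other strand, had a log2 difference of -0.0011 there (adjusted p = 0.996). An effect of Cas9 in the knockout monolayers cannot be told apart from that of the knockout if the control monolayers had none.

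The other monolayer calls were less firm. FOSL1 was lower by log2 -0.21 ± 0.050 (adjusted p = 0.00275) and FOSL2 by -0.24 ± 0.054 (adjusted p = 0.00151). FOSL1 lost its call without knockout monolayer library 2 (0.112) or control monolayer library 2 (0.0675), and FOSL2 without control monolayer library 2 (0.0647). ATF3, at 5.98 and 7.09 CPM in knockout and 9.30 and 8.93 CPM in control monolayers, was lower by log2 -0.48 ± 0.15 (adjusted p = 0.0312). That call rested on all 4 monolayer libraries, since it was lost without knockout library 1 (0.226), knockout library 2 (0.0709), control library 1 (0.177) or control library 2 (0.0950). FOS was higher by log2 0.30 ± 0.10 (adjusted p = 0.0451), a call lost in 10 of 17 alternatives, including those without knockout monolayer library 1 (0.312) or 2 (0.0719), control monolayer library 1 (0.193) or 2 (0.117) and knockout gel library 1 (0.0583). JUND (log2 0.02, 95% interval -0.08 to 0.12, adjusted p = 0.840) and FOSB (-0.14, -1.86 to 1.59, 0.923) did not pass, the second at 46 to 96 counts a library.

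**Figure D4:**
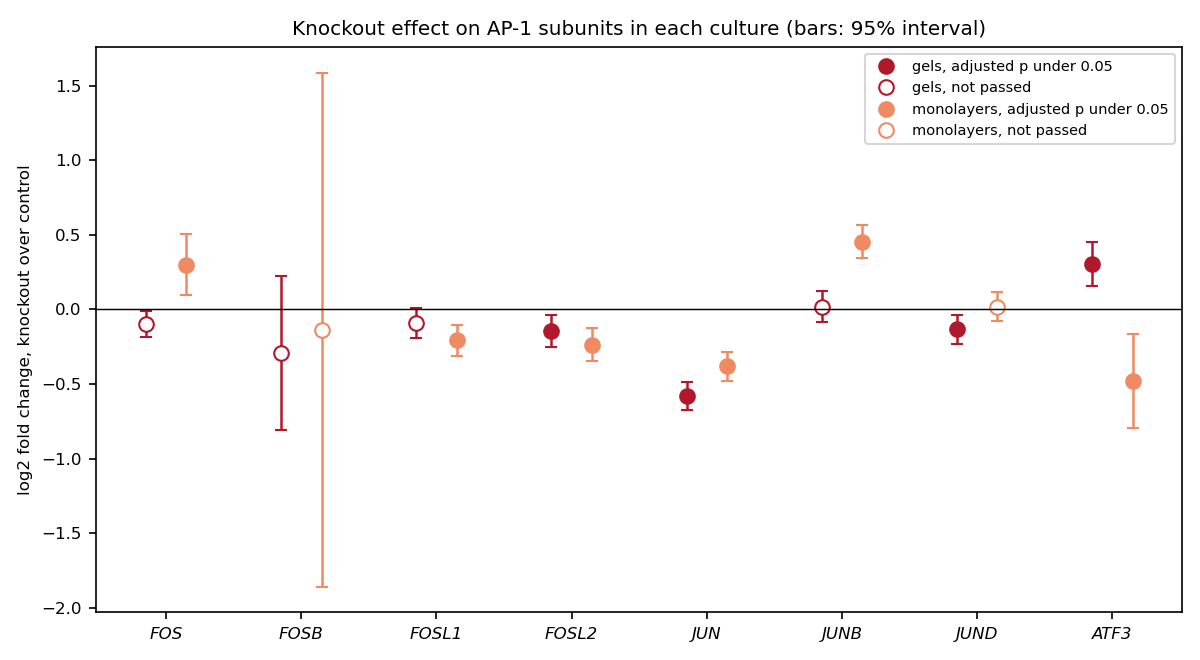
Points give the log2 fold change of knockout over control for each member, in gels (dark, left of each pair) and monolayers (light, right), with 95% intervals as bars and filled points for an adjusted p under 0.05. JUN lies below 0 in both cultures (-0.58 and -0.38), JUNB only in monolayers clears 0 upward (0.45), and the interval of FOSB in monolayers runs from -1.86 to 1.59.

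The difference between the 2 knockout effects was tested as an interaction, the effect in gels minus that in monolayers. It passed for 3 of the 8 members, 1 higher and 2 lower, against 2.67% of all tested genes called higher, 3.94% lower and 6.60% in either direction, with a median of -0.15 over the members and -0.020 over all genes. For JUNB the interaction was log2 -0.43 ± 0.075 (adjusted p = 0.000189, and 2.49e-05 to 0.00742 over 16 alternatives): knockout exceeded control by 0.02 in gels and by 0.45 in monolayers. HOOK2 had an interaction of -0.48 ± 0.13 (adjusted p = 0.0220). For ATF3 it was 0.78 ± 0.17 (adjusted p = 0.00571), with knockout effects of 0.31 in gels and -0.48 in monolayers, and the call was lost without knockout monolayer library 1 (0.0599) or control monolayer library 1 (0.0515). For FOS it was -0.39 ± 0.11 (adjusted p = 0.0219), with effects of -0.10 in gels and 0.30 in monolayers. The FOS call was lost without knockout gel library 1 (0.0599), control gel library 1 (0.0597) or 2 (0.0819), knockout monolayer library 1 (0.235) or control monolayer library 1 (0.133), in DESeq2 (0.0506) and without a filter on low counts (0.0505). JUN did not pass (-0.20 ± 0.067, adjusted p = 0.0625), with log2 knockout effects of -0.58 in gels and -0.38 in monolayers, and it did pass without knockout monolayer library 2 (0.0406), with a filter of 1 CPM in all libraries (0.0386) and with the replicate block (0.0478). FOSL1, FOSL2, JUND and FOSB did not pass, with interactions of 0.12, 0.09, -0.15 and -0.16.

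Calls for the knockout in genes around AP-1 are read against all tested genes, of which 11.5% were called higher and 12.4% lower in gels, and 9.60% in each direction in monolayers. Of 17 tested kinases and activators, 1 rose and 5 fell in knockout gels relative to control gels (median log2 0.04), among them MAP2K1, the kinase directly above ERK, at -0.29 ± 0.050 (adjusted p = 3.79e-05). In knockout monolayers relative to control monolayers 1 rose and 1 fell (median 0.03). The gene that rose in each culture was ELK1, an ETS factor that activates FOS with SRF, by 0.25 in gels and 0.25 in monolayers. Of 11 tested bZIP partners, MAFF alone passed in gels (log2 -0.24), and 3 fell in monolayers, namely JDP2, a repressor of AP-1 sites (-0.87 ± 0.17, adjusted p = 0.000193), CREB5 (-0.73 ± 0.12, adjusted p = 3.65e-05) and MAFF (-0.22). Of 16 tested AP-1 targets, 4 rose and 3 fell in knockout gels (median 0.0058), with PLAU at -0.54, the cytokine gene IL11 at 0.54 and CD44, a hyaluronan receptor, at 0.37. In knockout monolayers 8 rose and 4 fell (median 0.16), with the chemokine gene CXCL8 at 1.69, IL6 at 1.64 and TIMP1 at 0.72. Of 17 immediate-early genes outside AP-1, 5 rose and 3 fell in each culture (medians 0.15 in gels and 0.07 in monolayers). In knockout monolayers EGR1 was higher by 0.48 ± 0.059 (adjusted p = 1.33e-07), while CCN1 (-0.54, adjusted p = 4.73e-11) and MYC (-0.31, adjusted p = 7.95e-06) were lower. Of the 10 ATF4 stress genes 1 rose and 5 fell in knockout gels (median -0.21), and none rose and 6 fell in knockout monolayers (median -0.27), where CHAC1, a glutathione-degrading enzyme, was at -0.81. Of 10 heat shock genes, 5 rose and 1 fell in knockout gels and 3 rose and 1 fell in knockout monolayers.

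The genes whose log2 CPM ran most like each member over the 8 libraries were found among 10871 genes with a mean of at least 5 CPM. For FOS and FOSB these were the metallothionein genes MT2A (Pearson r 0.999 and 0.998) and MT1E (0.996 and 0.996) and ZFP36 (0.998 and 0.997). For ATF3 they were DUSP1 (0.998), the Krüppel-like factor gene KLF5 (0.998) and MT1E (0.997). These 3 members fell into a gel and a monolayer cluster of libraries, so that their r reflects little more than that split. JUN, which varied with both culture and knockout, was matched by the ephrin receptor gene EPHA2 (0.994), the cyclin gene CCNA1 (0.993) and ITPR1, a calcium channel of the endoplasmic reticulum (0.991). JUNB was matched by KLHL21 (0.995), WWP2 (0.990) and C15orf39 (0.989). FOSL2 was matched by GADD45A (0.986), TM4SF1 (0.983) and KCNAB2 (0.983), JUND by CYB5B (0.987), CCDC107 (0.983) and GLIS2 (0.982), and FOSL1 by PRRC2A (0.972), ASB1 (0.970) and SHMT2 (0.970). The 8 points share their groups, so no p is given.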

How the data were processed

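The authors deposited unnormalized counts by gene symbol for each library, made, per the submitters' processing notes, with FastQC 0.11.9, STAR 2.7.9a on hg38, featureCounts and R 4.1.1. The sources used here give no annotation, strand setting or featureCounts version. The library kit is stranded per the labels, but the unknown strand setting leaves counts of FOSB, FOSL2 and JUNB uncertain. Their gene intervals overlap genes on the other strand, and overlap of the exons was not checked.

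Genes were kept by edgeR's filterByExpr (minimum count 10), scaled with TMM factors and tested by the robust quasi-likelihood F-test (edgeR 4.0.16, R 4.3.3), in a fit of 4 group means over all 8 libraries, with 4 residual degrees of freedom. The test also draws on the spread of other genes. Two-sided p values were Benjamini-Hochberg adjusted across the 15568 genes, and 0.05 was the threshold. The SE is the absolute log2 fold change divided by the square root of F, and intervals are 95%. Totals of 15824504 to 23896899 counts per library bound the precision of low genes. The pipeline was tested on simulated data. DESeq2 1.42.0, other scalings and filters, the replicate number as a block and leaving out each library were alternatives. Transcript lengths and gene intervals came from GENCODE 29 and promoters from RefSeq (GRCh38.p14).

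The members and gene lists were chosen with earlier results of these data known. Named were all 8 members, from each list genes among the 3 smallest adjusted p values per comparison (their values may be given in other comparisons too), and for each member the 3 genes with the highest Pearson r of log2 CPM (prior count 2). NR4A1, the overlapping genes ERCC1 and HOOK2, and the markers ESR1, PGR, MS4A1 and CLDN5, which were too low to be tested, fall outside this rule and were chosen after their values were seen.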

Additional observations from a re-analysis of the deposited data

Results flagged for a closer look

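The knockout effect differed between gels and monolayers for 3 members in edgeR's interaction test. ATF3 had an interaction of log2 0.78, its transcripts being higher in knockout than in control gels and lower in knockout than in control monolayers. JUNB had an interaction of -0.43, with knockout above control in monolayers only by the test. FOS had an interaction of -0.39, with a log2 difference of -0.10 in gels and 0.30 in monolayers. The control monolayers' label names no Cas9, and the part of Cas9 in these interactions cannot be told apart from that of culture.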

How the results depend on the processing

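Of the recomputed member results, 608 kept both direction and side of the threshold, 51 lost the call, 6 gained one and 7 changed sign. All sign changes concerned values without a call and arose on leaving out 1 library: JUNB in gels became -0.011 without knockout gel library 1 and -0.0082 without control gel library 2, FOSB in monolayers 0.058 and JUND in monolayers -0.025 without knockout monolayer library 1, JUND -0.011 without control monolayer library 1, and the FOSB interaction 0.068 without knockout gel library 2 and 0.10 without knockout monolayer library 2. Over all such omissions JUNB in gels reached 0.063, FOSB in monolayers -0.40, JUND in monolayers 0.051 and the FOSB interaction -0.40. The number of members changed between knockout and control gels was 4, but 2 with DESeq2 size factors, 2 without a filter, 2 by DESeq2's test and 1 to 4 on leaving out 1 library, and was 2 to 6 in monolayers and 1 to 4 for the interaction on leaving out 1 library. Between gels and monolayers 7 or 8 members were called in every alternative. DESeq2 called 2479 genes for knockout in gels, 1835 in monolayers, 2431 for gels in control cells and 678 for the interaction, against 3721, 2989, 4158 and 1028 by edgeR. For gels in knockout cells DESeq2 called 4124 against 5915. Leaving out 1 library gave 2106 to 3914, 1848 to 3224, 2144 to 4501 and 413 to 1334 genes, and for gels in knockout cells 4191 to 6028 beside 5915. The fewest were without control gel library 1 for knockout in gels, for gels in control cells and for the interaction, and without knockout monolayer library 1 for knockout in monolayers. A lone library left in a group is assumed to vary like the other groups. The cause of the changed calls and counts was not tested. Replicate differences of any 2 groups correlated at -0.063 to 0.082 across genes. That gave no sign of pairing by replicate number, but 1 difference per group cannot exclude a shared batch. With the replicate block 3937, 3187, 4435, 6108 and 1203 genes were called for knockout in gels, knockout in monolayers, gels in control cells, gels in knockout cells and the interaction, and the JUN interaction passed. Among the members, depth was lowest for FOSB in monolayers, at 46 to 96 counts.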
